A study of Mus musculus with 4 samples.

Results

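Immediate early genes are the genes that cells switch on within minutes of a growth factor or a stress, without first making new protein. The 10 genes described here were chosen by name as members of this class: Fos, Fosb, Jun and Junb, whose products pair into the AP-1 transcription factor; Atf3, a related stress-inducible factor; Egr1, a zinc finger factor; Dusp1, a phosphatase of MAP kinases; Zfp36, which promotes decay of messenger RNAs; and Ier2 and Ier3, short-lived proteins named for their early induction. Probe sets carrying their symbols were found for 9 of the 10, with 2 for Jun and 1 for each other gene, or 10 probe sets among the 45141 of the array and 9 genes among 17097. The signal of Zfp36 was not analysed here. The members were chosen with earlier results of these data known, so the rank of a member among all genes is a description.

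Growth factors reach these genes mainly through the ERK pathway, in which ERK kinases phosphorylate ETS-family partners of serum response factor (SRF), and through factors of the CREB family. Stress kinases act on them through ATF and Jun proteins. Embryonic stem cells secrete FGF4, which keeps ERK signalling on, and Egr1 is known there as a gene that follows it. The transcripts are short-lived, so their level at harvest also follows recent handling of a culture.

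Mouse J1 embryonic stem cells were grown without feeder cells in medium with 10% FCS and LIF, and 1 array was hybridised for each of 4 conditions. These were Tet1/Tet2 KD + PRDM14, Tet1/Tet2 KD, Scramble + PRDM14 and Scramble. Tet1 and Tet2 encode enzymes that oxidise 5-methylcytosine, and PRDM14 is a regulator of pluripotent and germ cells. Per the labels, the cells were of a line called iP14, the knockdown is written shTet1/Tet2, and PRDM14 was switched with Dox (doxycycline), so an effect of PRDM14 and one of the drug cannot be told apart; whether the lines are single clones is not given. The scramble array is described in the labels as wild type cells. The design asks for the part of TET1 and TET2 in the action of PRDM14. With 1 array per condition no difference has a replicate check, and precision is limited by the number of arrays. Values are log2 probe set signals, and a gene was called different at 2-fold or more, a log2 difference of at least 1, if the higher array reached 5.40, the median of all probe sets with 1 named gene. That is a rule of size and not a test.

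The arrays had medians between 5.09 and 5.11. Of 10 embryonic stem cell marker genes measured, 10 lay above the filter on every array, with a mean signal between 10.30 and 10.52. The 9 fibroblast markers averaged 4.36 and 4.35 on the KD + PRDM14 and KD arrays and 4.39 and 4.33 on the scramble + PRDM14 and scramble arrays, and 2 of 9 reached the filter on each. Mean signals of primitive endoderm, mesoderm, neuroectoderm and trophectoderm markers lay between 4.94 and 5.88. Among them Pax6, a neuroectoderm factor, was 2-fold lower in the knockdown with PRDM14 (−1.43) and at −0.89 without it, reading 5.69 and 5.36 on the KD + PRDM14 and KD arrays, against 7.12 and 6.26 on the scramble + PRDM14 and scramble arrays. Its other 4 probe sets lay below the filter on every array and spanned −0.47 to 0.01 with PRDM14. Tubb3, a neuronal tubulin, was at −0.17 in the knockdown with PRDM14 and 2-fold higher without it (1.06). Their part in the Egr1 result was not tested. Tet2 read 8.15 and 7.50 on the KD + PRDM14 and KD arrays, against 9.33 and 8.46 on the scramble + PRDM14 and scramble arrays, and its other probe set gave KD differences of −0.58 with PRDM14 and −0.56 without. Tet1 was not analysed here, and the Prdm14 probe set lay below the filter on all 4 arrays and does not check the PRDM14 labels. The scramble array stood furthest from the rest, with 49 genes at least 2-fold from all 3 other arrays, against 12 on KD + PRDM14, 7 on KD and 27 on scramble + PRDM14; none of the 9 immediate early genes was among these on any array. The knockdown comparison made with PRDM14 does not use the scramble array.

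Egr1 was the member that differed most, and it was lower on both knockdown arrays. Its probe set read 6.39 on the KD + PRDM14 array and 5.78 on the KD array, against 7.44 on the scramble + PRDM14 array and 7.94 on the scramble array. All 4 values lay above the filter, and both knockdown arrays were below both scramble arrays, with a gap of 1.04 between the nearest of them. With PRDM14 the knockdown array was 2.06-fold below its scramble array (log2 difference −1.04), just past the 2-fold rule and the 46th lowest of 10322 genes. Without PRDM14 it was 4.48-fold below (−2.16), the lowest value among 10351 genes. The KD value of 5.78 lies close to the filter, and the share of background in it was not determined. No other member passed the rule in any comparison. The rule called 1 of 9 members in each knockdown comparison, or 1 of the 4 that passed the filter there. Of all genes that passed it, 1.10% were called with PRDM14 and 1.06% without PRDM14.

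**Figure D1:**
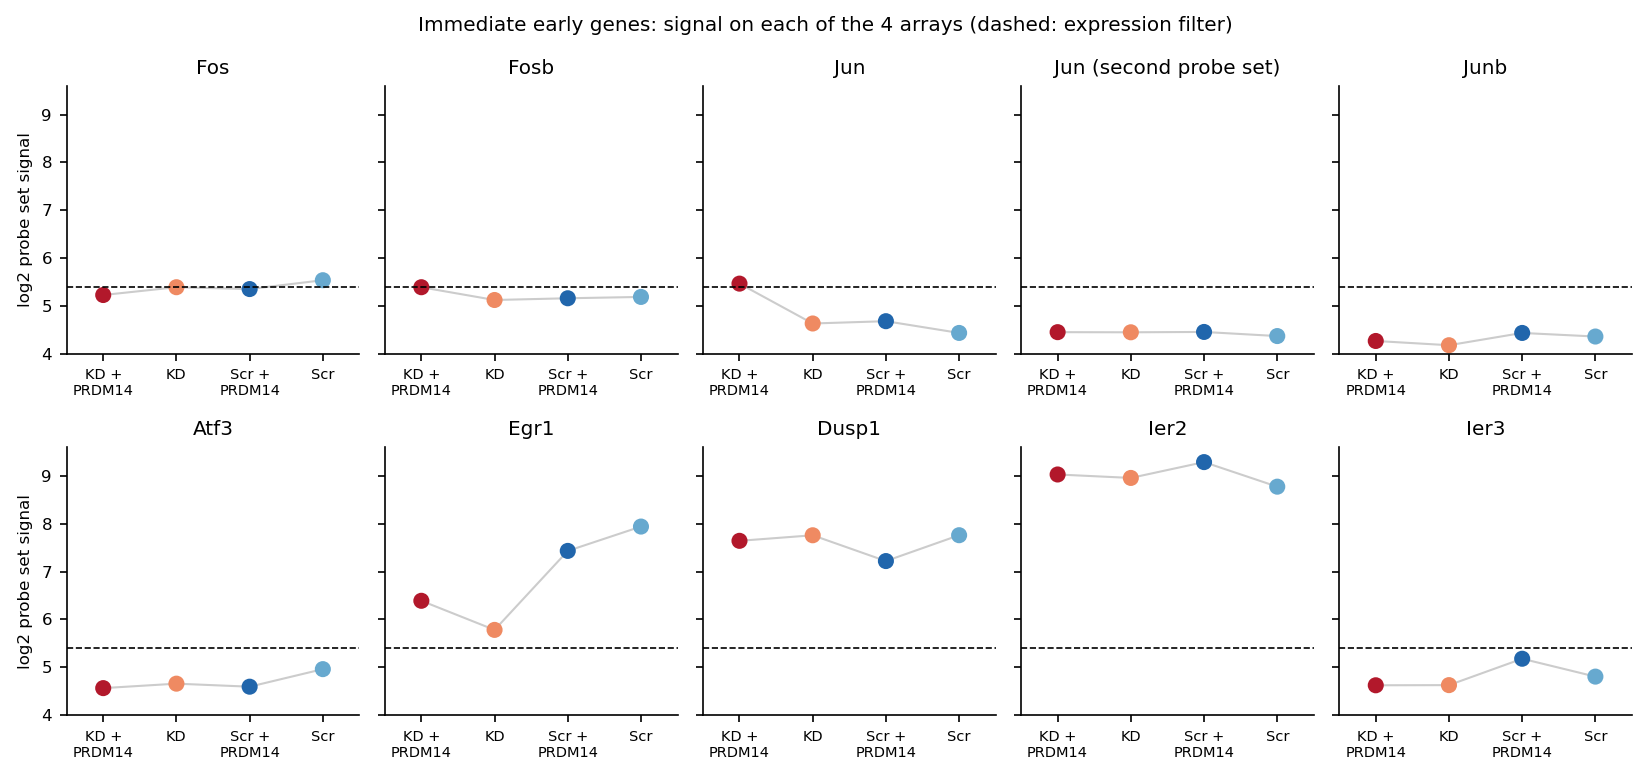
Log2 probe set signal (y axis) of the 10 probe sets of the immediate early genes on the 4 arrays (x axis, Scr for scramble); each point is 1 array and the dashed line is the expression filter of 5.40. Egr1 reads 6.39 and 5.78 on the knockdown arrays and 7.44 and 7.94 on the scramble arrays, while Fosb, Junb, Atf3 and Ier3 lie below the filter throughout.

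The 2 knockdown comparisons use different arrays, so the lower Egr1 signal was seen in separate pairs. Each pair sets shTet1/Tet2 cells against scramble cells, so any other difference between these cells would enter both. The pairs are therefore not replicates of the knockdown. Of 10154 genes above the filter in both pairs, 8, or 0.0788%, were at least 2-fold lower in both. They were Egr1, Lefty2, Slc25a16, Rpl39l, Cpeb4, Trh, Manba and Pfkp, a list read off after the values were seen. Egr1 has a single probe set here, so its difference could not be checked on another. Across 3209 and 3216 other genes with several probe sets, the same differences varied between probe sets of 1 gene with an SD of 0.16 with PRDM14 and 0.21 without PRDM14, a technical yardstick that covers neither cultures nor arrays. In a bulk sample fewer cells expressing a gene and less RNA per cell cannot be told apart.

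**Figure D2:**
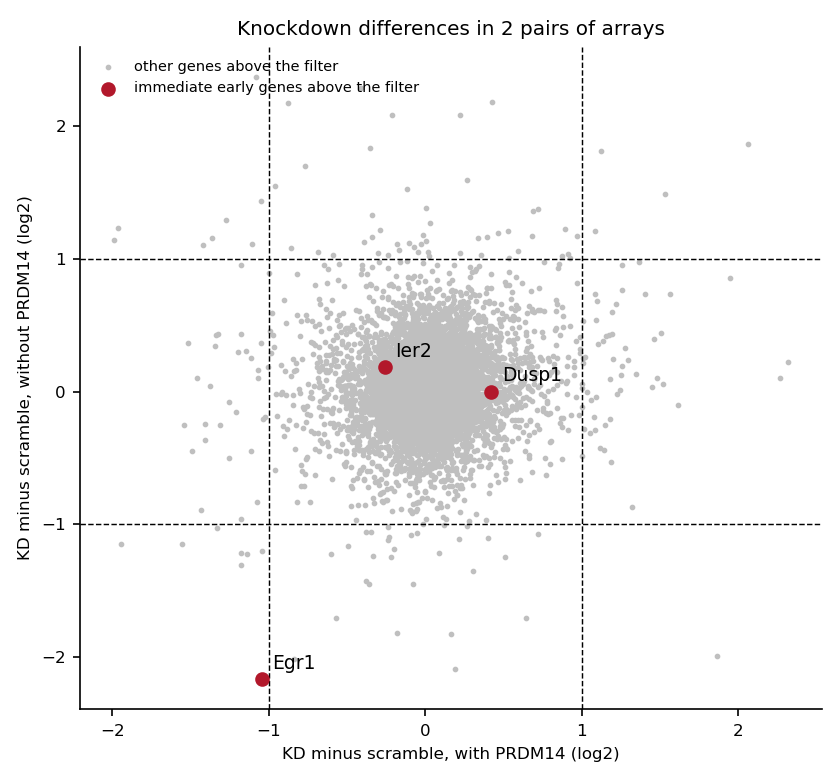
Log2 difference of knockdown minus scramble with PRDM14 (x axis) against the same without PRDM14 (y axis), each point 1 gene above the filter in both pairs of arrays, dashed lines at 2-fold. Egr1 lies at −1.04 and −2.16, while Dusp1 and Ier2 stay inside the 2-fold lines.

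With PRDM14, Egr1 was higher in knockdown cells and lower in scramble cells. The KD + PRDM14 array exceeded the KD array by 0.61 (6.39 against 5.78), and the scramble + PRDM14 array lay below the scramble array by a difference of −0.51 (7.44 against 7.94). Neither passed 2-fold. Among all genes 2.56% differed by at least as much in the knockdown pair, and 11.1% in the scramble pair. The difference between the 2 PRDM14 differences was 1.12, past 2-fold. Egr1 was the 1 member of 9 so called, or 1 of the 5 above the filter on some array, beside 2.27% of 10519 such genes. The value of 1.12 holds the error of 4 arrays and includes the scramble array.

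An additive model of both factors, fitted with limma to all 10519 genes above the filter on some array, gave an average knockdown effect of −1.60 ± 0.32 (SE) for Egr1, with an unadjusted p of 0.0127 and a Benjamini-Hochberg adjusted p of 0.802. For the average PRDM14 effect limma gave 0.05 ± 0.32 and an adjusted p of 0.984. The model has 1 residual degree of freedom, and the unequal PRDM14 differences of Egr1 count in it as error. The SE and p use a variance that limma moderated towards that of other genes of similar signal. They therefore do not give the spread of Egr1 alone. None of the 5 members fitted passed 5% after adjustment by limma for either factor. Over all genes 0 passed (0.00%) for either factor, while 604 genes (5.74%) had an unadjusted limma p below 0.05 for the knockdown and 638 (6.07%) for PRDM14.

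Among the AP-1 genes no difference reached 2-fold. The table of promoters from RefSeq (build GRCm38.p6, 250 bases before to 50 after the start of each gene) held windows of 8 of the 10 members, and those of Egr1 and Ier2 were not used here. The windows of Fosb, Fos and Dusp1 are printed as examples of windows with matches, and those of other members hold matches too. The letters marked are the EGR motif GCGNGGGCG bound by Egr1, the cyclic AMP response element TGACGTCA, its core TGACG, and the TATA motif TATAA. Capitals mark the matches, searched on both strands. The Fosb window is chr7:19309996-19310295 on the minus strand, the Fos window chr12:85473640-85473939 on the plus strand and the Dusp1 window chr17:26508423-26508722 on the minus strand.
Fosb: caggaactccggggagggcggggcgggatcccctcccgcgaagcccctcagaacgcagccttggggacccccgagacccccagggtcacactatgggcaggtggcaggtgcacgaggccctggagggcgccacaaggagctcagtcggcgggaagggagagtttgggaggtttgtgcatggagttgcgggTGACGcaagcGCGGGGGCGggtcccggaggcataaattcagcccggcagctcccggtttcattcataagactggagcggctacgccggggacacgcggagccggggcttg
Fos: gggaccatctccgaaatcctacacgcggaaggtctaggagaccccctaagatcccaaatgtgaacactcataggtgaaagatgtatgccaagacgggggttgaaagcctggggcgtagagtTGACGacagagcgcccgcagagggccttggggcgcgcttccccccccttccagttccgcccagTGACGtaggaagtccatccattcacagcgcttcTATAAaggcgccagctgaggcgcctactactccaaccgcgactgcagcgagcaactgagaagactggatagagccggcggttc
Dusp1: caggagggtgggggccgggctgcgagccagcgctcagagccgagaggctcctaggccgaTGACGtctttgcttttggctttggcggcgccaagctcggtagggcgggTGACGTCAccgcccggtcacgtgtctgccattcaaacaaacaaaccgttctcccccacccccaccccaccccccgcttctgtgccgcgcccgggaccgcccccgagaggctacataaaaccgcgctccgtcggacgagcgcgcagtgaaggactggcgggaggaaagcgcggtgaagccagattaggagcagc

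The EGR motif stood in the windows of Fosb, 50 to 42 bases before the start, and of Zfp36, against 5.55% of 32851 windows of all genes. The element TGACGTCA stood in that of Dusp1 (1.79% of all windows), and its core TGACG, which lies inside it, in those of Atf3, Dusp1, Fos, Fosb and Junb (20.8%). TATAA was found in those of Fos, Junb and Ier3 (24.9%), and the CArG box, the motif of SRF, in that of Zfp36 (1.63%). Bases outside the windows were not searched, so a member without a match may still carry the motif further away. A match of letters is a description and not a binding site. Genes with the EGR motif in a window were also set beside all genes with a window, a list chosen after the Egr1 values were seen. In the knockdown with PRDM14 their median difference was 0.02 over 1015 genes, against 0.0034 over 8337, with 0.394% against 0.456% at least 2-fold lower and 1.08% against 0.636% at least 2-fold higher. Without PRDM14 the medians were 0.01 over 1024 genes and 0.0094 over 8369, with 0.488% against 0.430% at least 2-fold lower and 0.684% against 0.538% at least 2-fold higher. These shares were not tested against each other.

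Fosb, the measured member whose printed window carries the EGR motif, read 5.39 and 5.12 on the KD + PRDM14 and KD arrays, against 5.16 and 5.18 on the scramble + PRDM14 and scramble arrays. All lay below the filter, so no call could be made, and the KD + PRDM14 value was the highest. Its knockdown differences were 0.23 with PRDM14 and −0.06 without it, where Egr1 was at −1.04 and −2.16.

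Fos read 5.22 and 5.39 on the KD + PRDM14 and KD arrays, against 5.35 and 5.53 on the scramble + PRDM14 and scramble arrays. Only the scramble value reached the filter. The 4 values spanned 0.31, and each difference in the 4 comparisons was between −0.19 and −0.12, near the SD of 0.15 to 0.22 between probe sets of 1 gene.

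The probe sets of Jun disagreed. The brighter probe set read 5.46 on the KD + PRDM14 array, 4.63 on KD, 4.68 on scramble + PRDM14 and 4.43 on scramble. KD + PRDM14 thus stood 0.79 above the next array and was the only one above the filter. The other Jun probe set read 4.45, 4.44, 4.45 and 4.37 in the same order, all below the filter and spanning 0.09. The PRDM14 difference in knockdown cells was 0.83 on the first probe set and 0.0028 on the second, and 0.42 with their mean.

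Junb read 4.26 and 4.17 on the KD + PRDM14 and KD arrays, against 4.43 and 4.36 on the scramble + PRDM14 and scramble arrays, all below the filter and within 0.26 of each other. Atf3, induced through the stress kinases, read 4.56 and 4.66 on the KD + PRDM14 and KD arrays, against 4.59 and 4.96 on the scramble + PRDM14 and scramble arrays. It too stayed below the filter, with its highest value on the scramble array. Below the filter a signal may be background. No background was determined for single probe sets, and 23 nonspecific controls of differing GC content spanned 2.78 to 8.20. Small differences of Fosb, Junb, Atf3, Ier3 and the second Jun probe set therefore cannot be read as expression. The brightest of these controls also exceeds every Egr1 and Dusp1 value, so a signal above the filter is not shown to be free of background either.

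Dusp1, which removes the activating phosphates from ERK, JNK and p38 kinases, lay above the filter on all 4 arrays. It read 7.65 on KD + PRDM14 and 7.76 on KD, against 7.22 on scramble + PRDM14 and 7.76 on scramble. Scramble + PRDM14 was the low array, 0.42 below the next, and the other 3 were within 0.12 of each other. Its differences were −0.12 for PRDM14 in knockdown cells, −0.54 for PRDM14 in scramble cells, 0.42 for the knockdown with PRDM14 and −0.0013 without it. At least as large a PRDM14 difference in scramble cells was seen in 9.89% of genes.

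Ier2, a nuclear protein of the early response, also lay above the filter throughout. It read 9.04 on KD + PRDM14 and 8.96 on KD, against 9.29 on scramble + PRDM14 and 8.78 on scramble. The knockdown arrays lay between the scramble arrays. PRDM14 differences were 0.07 in knockdown cells and 0.51 in scramble cells, where 10.9% of genes differed at least as much. Ier3, known to limit apoptosis, read 4.62 and 4.63 on the KD + PRDM14 and KD arrays, against 5.18 and 4.80 on the scramble + PRDM14 and scramble arrays, below the filter on each.

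**Figure D3:**
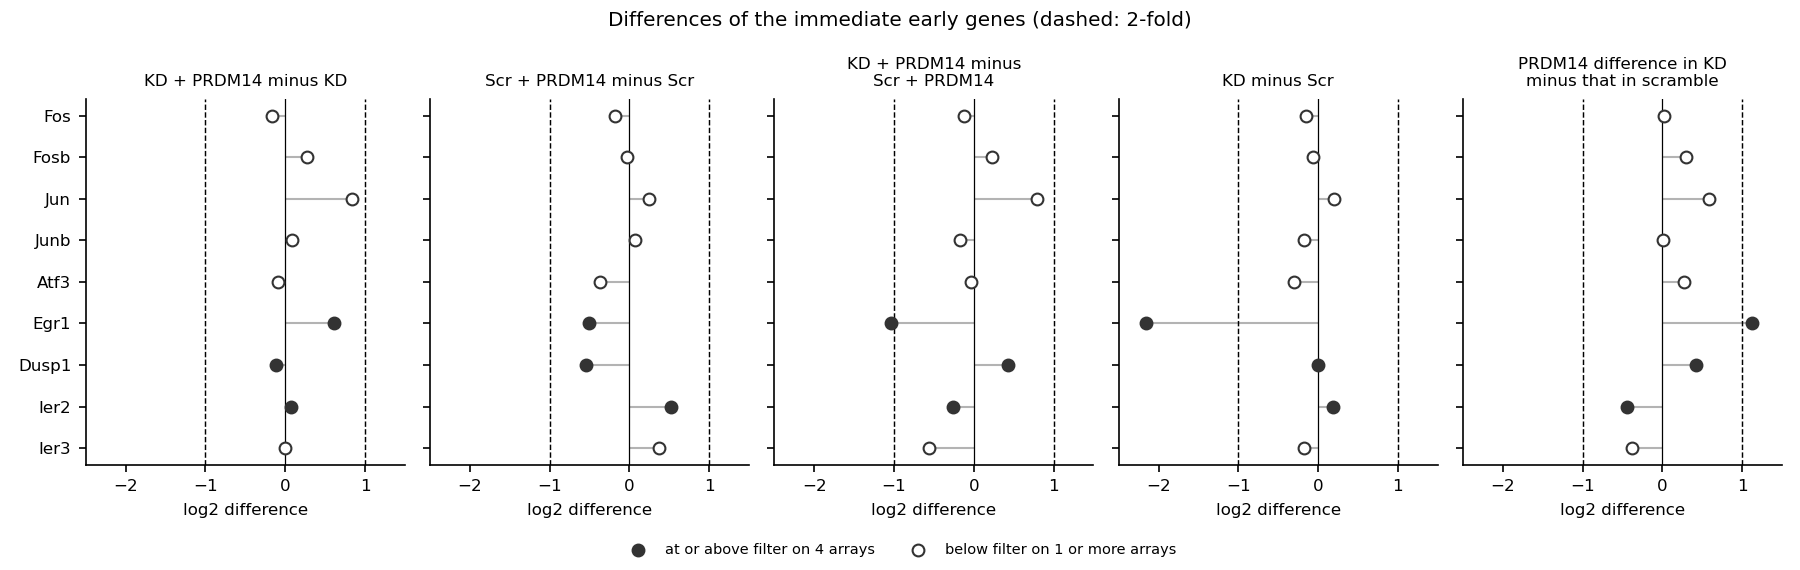
Log2 differences (x axis) of the 9 measured immediate early genes (rows, brightest probe set) in the 4 comparisons and, at right, the PRDM14 difference in knockdown cells minus that in scramble cells; filled points lie at or above the filter on 4 arrays and dashed lines mark 2-fold. Egr1 alone passes the dashed lines, at −1.04 and −2.16 for the knockdown with and without PRDM14 and at 1.12 for the difference of differences.

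Read as a group, the 9 measured members had small median differences, but only 4 of the 9 passed the filter in each of the 4 comparisons, and when low values were set to the filter each of these medians was 0. For the knockdown the median was −0.12 with PRDM14, with 6 members below and 3 above 0, and −0.15 without PRDM14, with 7 below and 2 above. Over all genes, again without the filter, these medians were −0.0071 and 0.0037. For PRDM14 the median was 0.07 in knockdown cells, with 0 of 9 called beside 0.630% of all genes tested, and −0.03 in scramble cells, with 0 of 9 called beside 2.09%. With Egr1 left out, the other 8 members lay between −0.56 and 0.79 for the knockdown with PRDM14 and between −0.30 and 0.20 without it.

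Of the relatives of Egr1, only Egr3 could be read. Egr3, the EGR gene besides Egr1 that lay above the filter, read 7.51 and 7.48 on the KD + PRDM14 and KD arrays, against 7.44 and 7.62 on the scramble + PRDM14 and scramble arrays. Its knockdown differences were 0.07 with PRDM14 and −0.14 without it. Egr2 and Egr4 lay below the filter on all 4 arrays, at 4.02 to 4.32 and 4.22 to 4.32. The difference between Egr1 and its relatives was not tested.

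A wider list of 47 early response genes had 46 with a probe set, and their medians lay between 0.0033 and 0.02 in the 4 comparisons. Of the 46, 33 or 34 passed the filter in each comparison, while the shares of all genes count only genes that passed it. With PRDM14, Klf4, a naive pluripotency factor, was 2-fold lower in the knockdown (−1.21, and −2.24 on its other probe set), the 1 called of 46, beside 1.10% of all genes. Without PRDM14 the knockdown array was at least 2-fold lower for 2 and higher for 1 of 46. The share over all genes was 1.06%. The lower ones were Cebpb (−1.70, and 0.65 with PRDM14), a leucine zipper factor, and Klf10 (−1.11, and −0.24 with PRDM14), a TGF-beta-induced repressor. The higher was Ccn2 (1.03, and −0.24 with PRDM14), a secreted matrix protein, which was under 2-fold with quantile normalization. For PRDM14 in knockdown cells 0 of 46 were called. In scramble cells the PRDM14 array was 2-fold higher for Ccn2 (1.37), Myc (1.32) and Phlda1 (1.10) and lower for Cebpb (−2.20) and Klf10 (−1.32), beside 2.09% of all genes. The other probe sets of Cebpb gave 0.06 and −0.63 for the knockdown and −0.03 and −0.76 for PRDM14 in scramble cells. Phlda1 read above the filter on the scramble + PRDM14 array alone. Ccn2, Cebpb and Klf10 read apart from the other arrays on scramble, at 8.19, 7.60 and 8.47, and their calls all use that array. The calls of Myc and Phlda1 use it too.

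Calls among genes listed for the SRF and ERK pathways are read against 0.630% to 2.09% of all genes called in the 4 comparisons. At such a share short lists may hold none. The shares count genes that passed the filter, as did 4 of the 7 SRF and cofactor genes and 17 of the 19 ERK genes in each comparison. RNA levels do not measure the activity of kinases or of SRF. Of 7 measured SRF and cofactor genes none was called, and Srf read 6.45 and 6.57 on the KD + PRDM14 and KD arrays, against 6.38 and 6.57 on the scramble + PRDM14 and scramble arrays. The largest differences in that list were those of Mrtfb (−0.25 for PRDM14 in scramble cells) and Elk3 (−0.28 for the knockdown with PRDM14, below the filter). Of 19 measured ERK pathway and feedback genes 0 were called for the knockdown without PRDM14 and 0 for PRDM14 in knockdown cells. Dusp4, an ERK phosphatase, was higher in the knockdown with PRDM14 (1.45) and lower with PRDM14 in scramble cells (−2.15). Spry4, a feedback inhibitor, was higher with PRDM14 in scramble cells (1.64), though its other probe sets gave 0.40, 0.23 and −0.01. Fgf4 read 9.09 and 9.06 on the KD + PRDM14 and KD arrays, against 9.44 and 8.52 on the scramble + PRDM14 and scramble arrays. Dusp6, also an ERK phosphatase, read 8.92 and 8.51 on the KD + PRDM14 and KD arrays, against 8.77 and 8.21 on the scramble + PRDM14 and scramble arrays. Neither was lower on both knockdown arrays, and both were picked out with their values known. Of the same list, Etv5, Nras and Map2k2 were lower in both pairs, and the other measured genes were not. Their differences were −0.25, −0.22 and −0.10 with PRDM14, and −0.10, −0.55 and −0.13 without it. The part of these genes in the Egr1 result was not tested.

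Of 9 stress kinase genes (8 above the filter in each comparison) and 7 CREB family genes (5 above it), none was called in any of the 4 comparisons. The largest were 0.44 for Rps6ka3 and 0.61 for Atf2, both in the knockdown with PRDM14. Of 10 cytoskeletal targets of SRF and its MRTF cofactors, Myl9, a myosin light chain, was 2-fold higher in the knockdown without PRDM14 (1.40, 6.03 against 4.63, the scramble value being below the filter), where 8 of 10 lay above 0. With PRDM14 its difference was 0.75, with both values (5.32 and 4.57) below the filter. There 9 of 10 lay above 0 with none called. Of all genes that passed the filter 1.10% were called with PRDM14 and 1.06% without it, and 8 and 9 of the 10 targets passed it. Both counts above 0 include Cnn1, which lay below the filter on all 4 arrays.

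Integrated stress response genes were lower together with Egr1 in the knockdown comparison that uses the scramble array. In the knockdown with PRDM14 the median of this list was −0.02, 5 of 10 genes were below 0 and none was called, while Egr1 was at −1.04. Without PRDM14 all 10 genes had a difference below 0, with a median of −0.98 and 5 of 10 past 2-fold: Nupr1 (−2.09), Psat1 (−1.45), Ddit4 (−1.25), Ddit3 (−1.11) and Chac1 (−1.08). The share of all genes called there was 1.06%. PRDM14 in knockdown cells gave a median of −0.09 with none called, and in scramble cells −0.98 with 5 of 10 called lower, among them Asns (−1.37). These counts of genes below 0 were the same under 2 other scalings of the arrays. Of 9 heat shock genes, which rise on handling of cells, 8 passed the filter in each comparison. Hspb1 was called, higher with PRDM14 in scramble cells (1.21), beside 2.09% of all genes. Its other probe sets gave 1.25, 0.12 and 0.08. For the knockdown the median of the heat shock genes was −0.04 with PRDM14 and 0.19 without it. The part of these genes in the Egr1 result was not tested.

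**Figure D4:**
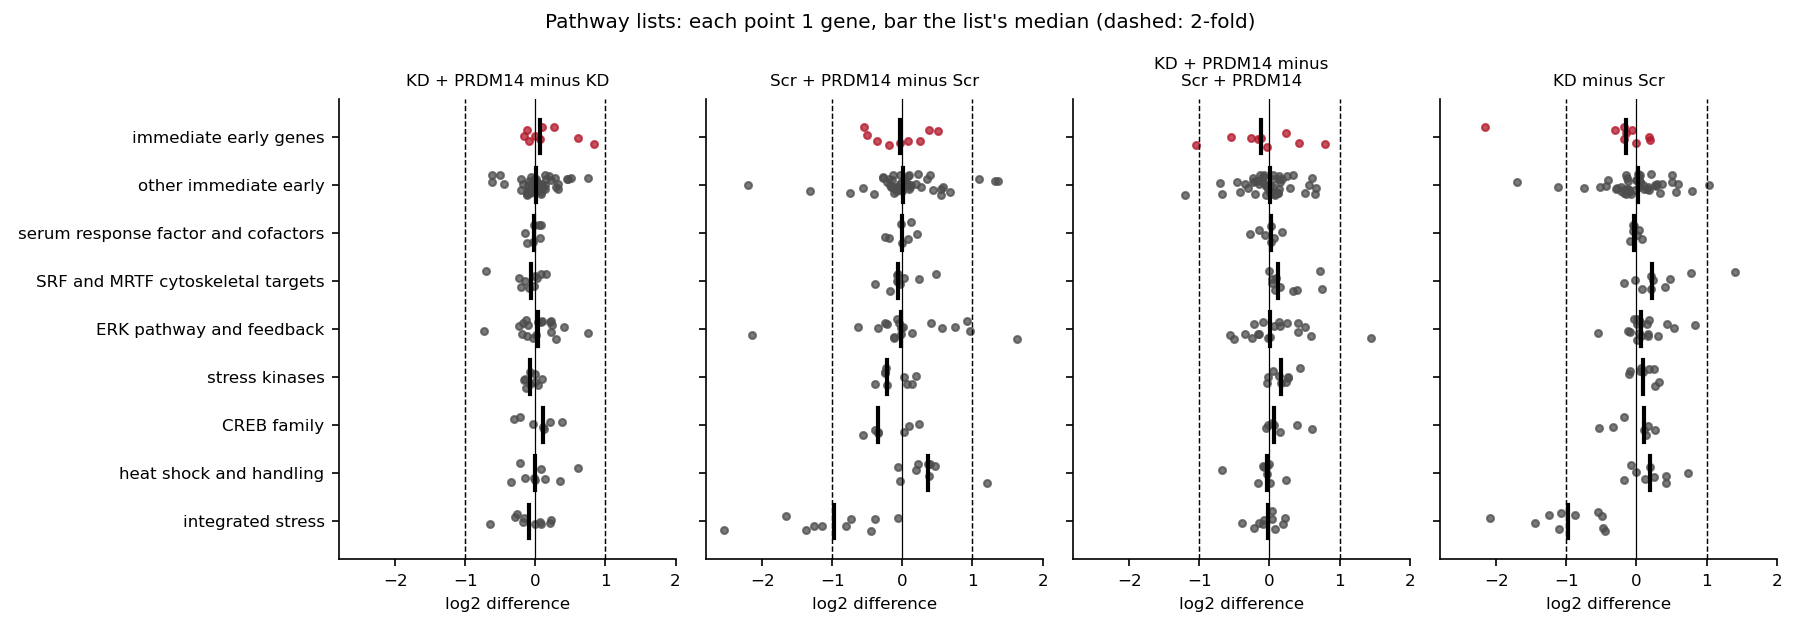
Log2 differences (x axis) of the immediate early genes and of 8 pathway lists (rows) in the 4 comparisons, each point 1 gene with a small vertical scatter, the black bar the list's median, dashed lines at 2-fold. In KD + PRDM14 minus Scr + PRDM14 the integrated stress list has a median of −0.02 and Egr1, the lowest red point, is at −1.04. In KD minus Scr these are −0.98 and −2.16.

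The genes nearest to Egr1 over the 4 arrays were taken as the 5 of 10518 with the smallest root mean square distance between log2 values centred on each gene's mean. They were Gpt2, an alanine aminotransferase, at a distance of 0.27, Slc25a16, a mitochondrial carrier, at 0.35, Fn1, fibronectin, at 0.36, Txnip, which binds thioredoxin, at 0.36, and Prune2 at 0.37. Fos, the nearest other member above the filter, was at 0.79, and Ier2, Dusp1 and Jun were at 0.88, 0.94 and 1.08. Slc25a16 read 5.30 and 5.43 on the KD + PRDM14 and KD arrays, against 6.45 and 6.66 on the scramble + PRDM14 and scramble arrays, and was 2-fold lower in both knockdown comparisons. Gpt2, Txnip, Fn1 and Prune2 were at −0.57, −0.84, −0.38 and −0.60 in the knockdown with PRDM14, and at −1.70, −2.01, −1.43 and −1.22, past 2-fold, without it. Other probe sets of Gpt2 gave −1.11 and −0.27 without PRDM14, and the second of Txnip −0.94. The other 3 probe sets of Prune2 gave 0.07, 0.0019 and −0.15, the first of them above the filter on all 4 arrays, so its difference rests on 1 probe set of 4. The likeness rests on 4 points and is a description. The genes were picked for nearness to Egr1 on these same arrays, so their lower knockdown values largely follow from that choice.

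**Figure D5:**
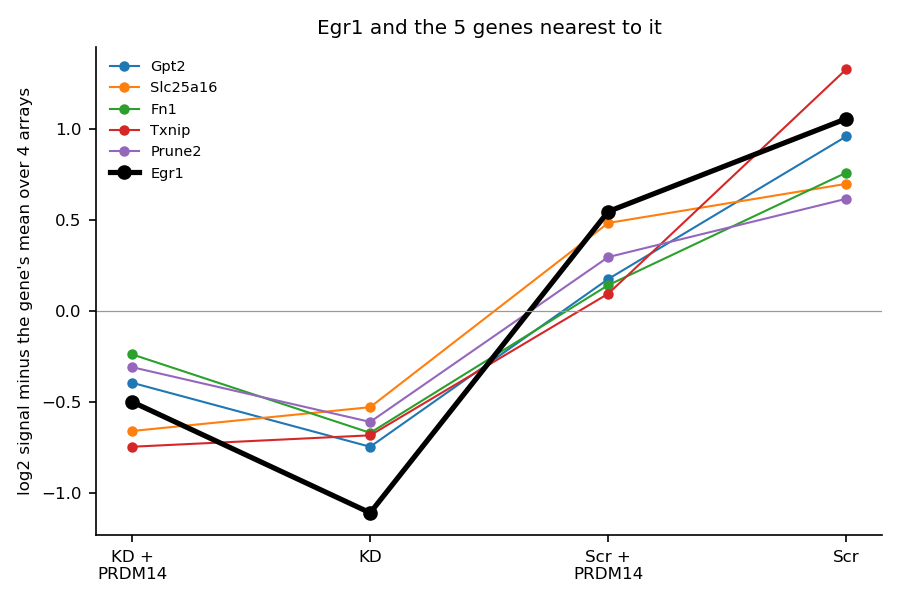
Log2 signal minus the gene's mean over the 4 arrays (y axis) for Egr1 (thick black) and the 5 nearest genes on the 4 arrays (x axis). All 6 genes are lower on both knockdown arrays than on both scramble arrays, and Egr1 has the lowest value, on KD. The 5 genes were chosen for this likeness on the same arrays.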

How the data were processed

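Per the labels' protocols, 150 ng of total RNA from each of 4 samples was labelled for Affymetrix arrays with the 3′ IVT Express chemistry. The authors deposited normalized log2 signals per probe set, with nearly equal quartiles on the 4 arrays. Base 2 was taken from their span of 2.78 to 13.2. The submitters' processing notes name Affymetrix Expression Console without a version. The summary and background method and the genome build were not given in the sources used. Groups come from sample titles.

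Of the probe sets, 28898 had 1 gene in GEO's platform annotation, 551 had several, 15588 had none and 104 were controls. RefSeq held the Entrez identifiers of 28689, and 0 symbols changed. A gene was represented by its brightest probe set. Calls needed a 2-fold difference and a higher array at 5.40 or more, the median of named probe sets. Medians over the members use all 9 measured, without the filter. The additive model used limma 3.58.1 in R 4.3.3 (lmFit, eBayes with an intensity trend), adjusted by Benjamini-Hochberg over all genes fitted. It was also run on simulated data with independent noise and purely additive changes. That run holds no dependence between the factors, so it does not show how the model behaves where they depend on each other. Members and lists were chosen with earlier results of these data known. From each list, members past 2-fold in a comparison were named, or otherwise those with the largest differences; other genes were picked out with their values known. The closing section gives the alternatives tried.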

Additional observations from a re-analysis of the deposited data

Results flagged for a closer look

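These genes had differences of opposite sign in the 2 backgrounds, each larger than the SD between probe sets of 1 gene. With 1 array per condition the contrast between backgrounds was not tested.

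For PRDM14, knockdown cells against scramble cells, Egr1 was at 0.61 and −0.51 (a contrast of 1.12), Cebpb at 0.15 and −2.20 (2.35), Ddit4 at 0.23 and −0.80 (1.03), Klf4 at −0.61 and 0.44 (−1.06) and Tubb3 at −0.36 and 0.87 (−1.23). For the knockdown, with PRDM14 against without, Cebpb was at 0.65 and −1.70 (2.35), Nupr1 at 0.19 and −2.09 (2.28), Ddit3 at 0.22 and −1.11 (1.33), Ccn2 at −0.24 and 1.03 (−1.26), Spry4 at −0.56 and 0.84 (−1.40), Myc at −0.21 and 0.79 (−1.0015) and Tubb3 at −0.17 and 1.06 (−1.23). Each contrast includes the scramble array. The values are those of the brightest probe set. The other probe sets of Cebpb had PRDM14 differences of −0.06 and −0.03, and of −0.05 and −0.76, of the same sign in knockdown and scramble cells. Those of Spry4 gave contrasts of −0.03, −0.17 and −0.45.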

How the results depend on the processing

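No paired analysis was possible because each condition has 1 array. Egr1 kept its direction and its calls under quantile normalization and recentring, with knockdown differences between −1.05 and −1.04 with PRDM14, between −2.19 and −2.16 without it, and a difference of PRDM14 differences between 1.11 and 1.15. Probe set choice and raised low values cannot move Egr1, which has 1 probe set, above the filter on every array. At 3-fold, 0 members were called for the knockdown with PRDM14 and 0 for the dependence on the knockdown. At 1.5-fold, 2 members (Egr1 and Jun) were called for each of these and for PRDM14 in knockdown cells. Over all genes, a 1.5-fold threshold called 290 and 849 genes for PRDM14 in knockdown and scramble cells (65 and 217 at 2-fold), 448 and 527 for the knockdown with and without PRDM14 (114 and 110), and 957 for the dependence (239). At 3-fold these were 13, 52, 12, 21 and 49. With probe sets of a gene averaged, 43 genes were called for PRDM14 in knockdown cells. With low values raised to the filter the members' median of the dependence, 0.27, was 0, as were the medians of the 4 comparisons, and 6 of 9 members reach the filter on at most 1 array. Of 225 recomputed member differences 18 moved by more than the SD between probe sets, 15 with raised values and 3 for Jun with the mean of its probe sets, and none of the called ones reversed. The filter alternatives do not enter the medians, which use no filter. The adjusted limma p of Egr1 for the knockdown ranged from 0.781 to 0.835 over the alternatives, with no trend, no filter and a filter 1 log2 unit higher among them. Signals below the filter limit what can be said of Fosb, Junb, Atf3 and Ier3.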
